A study of Homo sapiens with 8 samples.

Results

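The genes described here are 10 long non-coding RNAs (lncRNAs), MALAT1, NEAT1, MEG3, H19, PVT1, KCNQ1OT1, GAS5, MIAT, TUG1 and NORAD. They were taken by symbol from a table of 27945 genes, and all 10 had a row. Nascent transcription was measured by fastGRO-seq, in which engaged polymerases in isolated nuclei extend their transcripts in the presence of a labeled nucleotide and the labeled RNA is captured and sequenced. The cells were IMR90, a line of primary human lung fibroblasts of embryonic origin. The senescent cells carried an inducible fusion of the estrogen receptor and H-RAS G12V (ER:RAS), which was switched on with 100 nM 4-hydroxytamoxifen, and were harvested on day 6. The 4 groups were control cells, and senescent cells with an shRNA labeled as control (shControl), with shMETTL3 or with shMETTL14, each with 2 libraries. No shRNA is given in the labels of the control cells, and senescence and infection with an shRNA virus can therefore not be told apart where they are set against senescent shControl cells. The methods describe 1 shRNA per target, so an effect of the target and of that hairpin cannot be told apart either. The study describes the replicates as independent experiments, but the labels do not name separate cultures, so p-values measure the spread between these libraries.

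LncRNAs are thought to act as RNA rather than through a protein, although GENCODE types TUG1 as protein-coding. MALAT1 is held in nuclear speckles, the bodies that store splicing factors, and NEAT1 is the scaffold of paraspeckles. KCNQ1OT1, H19 and MEG3 come from imprinted loci, where only the copy from 1 parent is transcribed, and KCNQ1OT1 silences its neighbors in cis. GAS5 is the spliced host of several small nucleolar RNAs and accumulates when growth stops. NORAD binds Pumilio proteins in the cytoplasm, PVT1 lies beside MYC, TUG1 has been tied to Polycomb repression and MIAT is a nuclear RNA known from heart and neural tissue. METTL3 and METTL14 form the enzyme that writes N6-methyladenosine (m6A) on RNA, often within the letters GGACT, and MALAT1 and NEAT1 are well known m6A targets.

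The RNAs differ in size and structure, which matters because reads were counted over whole gene spans with introns included. On hg19, MALAT1 was counted at chr11:65265209-65273983 on the plus strand and NEAT1 at chr11:65190269-65213009 on the same strand, which covers its long isoform. Both spans are exonic throughout by the GENCODE annotation, as is that of NORAD on the minus strand at chr20:34633540-34638882. TUG1 on the plus strand at chr22:31365197-31375380 is 73.4% exonic by its canonical transcript, which has 3 exons, and 99.7% by any annotated transcript. GAS5 on the minus strand at chr1:173833037-173838020 has 12 canonical exons that fill 9.21% of the span, although exons of any annotated transcript cover 82.2%. MEG3, on the plus strand at chr14:101292445-101327360, and MIAT, on the plus strand at chr22:27053446-27072440, are 0.748% and 16.4% exonic by their canonical transcripts and 65.4% and 75.6% by any annotated transcript. PVT1 is the longest row, at 307 kb, and its 11 canonical exons fill 0.408% of it, against 7.81% for exons of any transcript. KCNQ1OT1 on the minus strand at chr11:2629558-2721228 lies wholly inside the protein-coding gene KCNQ1 on the other strand. H19 lies on the minus strand at chr11:2016406-2019105.

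Because the knocked down enzyme writes m6A, the letters GGACT were counted on the transcribed strand of each span in GRCh37. MALAT1 held 13, or 1.48 per kb, above 95.5% of the 11670 genes with at least 80 reads over the 8 libraries, for which the median was 0.786 per kb. NEAT1 held 19, or 0.835 per kb, above 58.1% of these genes. MEG3 had 1.2 per kb and NORAD 0.374 per kb, the latter above only 2.63% of genes. Among genes with spans of similar length, MALAT1 stood above 89.8%, NEAT1 above 51.0%, MEG3 above 93.7% and NORAD above 6.84%. The 120 bases of each nuclear body RNA that hold the most copies are shown with GGACT in capitals. They lie at chr11:65267726-65267845, with 3 copies, and at chr11:65191000-65191119, with 2 copies, both on the plus strand of GRCh37.
MALAT1: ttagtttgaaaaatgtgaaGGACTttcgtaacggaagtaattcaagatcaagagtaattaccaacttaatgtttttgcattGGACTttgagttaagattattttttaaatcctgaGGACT
NEAT1: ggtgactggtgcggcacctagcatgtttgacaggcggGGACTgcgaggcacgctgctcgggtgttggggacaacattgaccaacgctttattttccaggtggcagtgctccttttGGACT
NORAD held 15 copies of TGTANATA, the core that Pumilio proteins bind, or 2.81 per kb, where the median gene had 0.13 per kb. No other member had more than 0.295 per kb. A letter match is a description of the sequence and not a measured m6A or binding site.

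Promoters, 250 bases before to 50 bases after a start site, were in the RefSeq table (GRCh38.p14) for 7 of the 10 RNAs. NEAT1, PVT1 and KCNQ1OT1 had no entry. The promoters of MALAT1, MEG3, GAS5 and TUG1 are shown because these 4 RNAs rose together after METTL14 knockdown, and that of NORAD because it did not pass the test there. Capitals mark matches on either strand to the TATA box (TATAAA), the CCAAT box, the GC box (GGGCGG), the CRE (TGACGTCA), the AP-1 site (TGACTCA), the E-box (CACGTG) and the NF-kB site (GGGANTTCC). Overlapping matches are run together. The first MALAT1 entry (chr11:65497488-65497787, plus) matched the counted start of MALAT1 exactly on GRCh37, while the second (chr11:65498795-65499094, plus) starts 1307 bases inside the counted span. The MEG3 entry (chr14:100825858-100826157, plus) and the NORAD entry (chr20:36050911-36051210, minus) also matched the counted starts. The TUG1 entry (chr22:30969015-30969314, plus) starts 54 bases inside the span, and the GAS5 entry (chr1:173868996-173869295, minus) starts upstream of it and does not hold the counted start.
MALAT1, first start: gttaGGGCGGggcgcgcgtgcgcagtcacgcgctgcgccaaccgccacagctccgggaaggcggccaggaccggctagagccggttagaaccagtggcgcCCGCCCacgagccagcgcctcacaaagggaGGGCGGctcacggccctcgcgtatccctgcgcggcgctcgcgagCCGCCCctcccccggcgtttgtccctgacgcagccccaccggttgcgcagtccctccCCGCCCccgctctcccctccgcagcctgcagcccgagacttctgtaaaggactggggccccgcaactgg
MALAT1, second start: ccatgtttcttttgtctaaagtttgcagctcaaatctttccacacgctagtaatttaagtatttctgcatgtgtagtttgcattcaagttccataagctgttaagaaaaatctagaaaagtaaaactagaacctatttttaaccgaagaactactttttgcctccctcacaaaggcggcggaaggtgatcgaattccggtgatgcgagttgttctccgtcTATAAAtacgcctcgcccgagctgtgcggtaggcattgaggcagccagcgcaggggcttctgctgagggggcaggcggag
MEG3: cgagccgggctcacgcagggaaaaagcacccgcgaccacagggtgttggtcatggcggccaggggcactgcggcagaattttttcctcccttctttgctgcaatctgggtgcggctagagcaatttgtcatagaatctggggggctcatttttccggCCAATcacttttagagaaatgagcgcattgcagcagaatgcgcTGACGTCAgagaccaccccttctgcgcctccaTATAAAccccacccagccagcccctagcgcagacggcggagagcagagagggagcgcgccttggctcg
GAS5: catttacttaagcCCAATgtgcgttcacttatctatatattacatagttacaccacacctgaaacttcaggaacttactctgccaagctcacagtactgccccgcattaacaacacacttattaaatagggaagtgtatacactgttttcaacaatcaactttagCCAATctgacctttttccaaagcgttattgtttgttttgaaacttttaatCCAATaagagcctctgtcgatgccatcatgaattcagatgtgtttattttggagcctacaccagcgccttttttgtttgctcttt
TUG1: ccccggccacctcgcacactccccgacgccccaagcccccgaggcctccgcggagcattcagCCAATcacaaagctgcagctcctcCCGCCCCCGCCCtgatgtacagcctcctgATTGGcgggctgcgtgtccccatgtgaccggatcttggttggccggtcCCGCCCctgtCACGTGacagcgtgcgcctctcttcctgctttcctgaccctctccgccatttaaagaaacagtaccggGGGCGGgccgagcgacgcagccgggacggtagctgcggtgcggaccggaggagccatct
NORAD: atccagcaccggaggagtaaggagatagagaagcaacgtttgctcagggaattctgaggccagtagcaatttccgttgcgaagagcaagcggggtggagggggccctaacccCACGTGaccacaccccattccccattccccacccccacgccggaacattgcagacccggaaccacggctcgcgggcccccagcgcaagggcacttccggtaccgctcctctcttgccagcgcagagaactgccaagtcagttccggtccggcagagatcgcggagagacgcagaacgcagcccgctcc
The promoters shared little. GAS5 held 3 CCAAT boxes, TUG1 held 2 and MEG3 held 1, and 34.6% of the 35116 promoters in the table hold at least 1. The first MALAT1 promoter held 5 GGGCGG matches and TUG1 held 4, a motif found in 45.0% of promoters. TATAAA, in 11.5% of promoters, occurred once before the MEG3 start and once before the second MALAT1 start. MEG3 had the only CRE, which is present in 1.85% of promoters, and CACGTG, present in 7.26%, occurred in TUG1 and in NORAD. AP-1 and NF-kB letters, found in 4.95% and 1.85% of promoters, were not in these windows. G and C made up 37.7% of the GAS5 promoter, less than in all but 8.1% of promoters, against 73.7% at the first MALAT1 start and a median of 58.7%.

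Library totals ranged from 14897360 to 20306299, but 21 rows of ribosomal RNA (rRNA) took 86.2% to 92.5% of them and 1513930 to 2048475 counts lay on other genes. The rRNA share was 89.9% in both control libraries, 92.1% to 92.5% with shControl, 86.2% to 88.4% with shMETTL3 and 90.4% to 91.3% with shMETTL14, and its part in the results was not tested beyond the scalings given below. Counts were scaled by TMM and divided by the library's size relative to the geometric mean, which gives the normalized counts used here. The quasi-likelihood test of edgeR was fitted to all 8 libraries at once, and 12844 genes passed the filter on low counts. All 10 fibroblast markers had reads in every library, but their summed raw counts ran from 35886 to 37627 in control cells, 18646 to 21264 with shControl, 26779 to 28855 after METTL3 knockdown and 14547 to 16272 with shMETTL14. Of the fibroblast markers, 7 were called lower and 1 higher in senescent shControl than in control cells, where 13.3% of all genes were called each way. With shMETTL3, 2 were called lower and 1 higher than with shControl, against 11.2% and 12.3% of all genes. With shMETTL14, 8 were called lower and 0 higher than with shControl, against 12% and 9.15% of all genes. The part of the fibroblast markers in the results was not tested. The 4 immune markers summed to 17 to 18 reads in control cells, 46 to 63 with shControl, 27 to 46 with shMETTL3 and 45 to 51 with shMETTL14. Nearly all of these were CD68, a lysosomal protein of macrophages, which was called higher in senescence (2.05, adjusted p = 2.6e-05), while CD3E had 0 reads. The 5 epithelial markers summed to 28 to 31, 15 to 26, 13 to 14 and 35 to 53 reads in the same order, with the keratin gene KRT18 called higher with shMETTL14 than with shMETTL3 (1.63, adjusted p = 0.0014). The 3 endothelial markers summed to 2 to 10 reads, and the part of all these markers in the results was not tested. METTL3 had 77 and 47 reads with shControl and 16 and 19 with shMETTL3 (log2 fold change −2.04, adjusted p = 1.8e-05). METTL14 had 24 and 28 reads with shControl and 18 and 14 with shMETTL14, which did not pass the test (log2 fold change −0.86, adjusted p = 0.076). METTL14 was already lower in senescent shControl than in control cells, which had 60 and 55 reads (log2 fold change −0.76, adjusted p = 0.047). These are reads of nascent RNA and do not measure the mature RNA or protein left after knockdown. The study points to a western blot for both knockdowns, and no protein was measured here.

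Transcription over MALAT1 and NEAT1 was among the densest in the table, while the other RNAs spanned a wide range. Per kb of counted span, averaged over the groups, MALAT1 ranked 5 and NEAT1 ranked 29 among 21501 genes outside the rRNA rows that had any read. These 2 RNAs held 68.2% and 25.1% of all reads of the 10 RNAs. NORAD ranked 157, GAS5 354, TUG1 494 and MEG3 514. Per kb, the other RNAs were not abundant. PVT1, for all its length, stood above 77.3% of the genes tested per kb, KCNQ1OT1 above 52.0% and MIAT above 16.4%. H19 had 0 reads in all 8 libraries, which allows up to 3 reads per library, or 1.46 to 1.98 CPM of the counts outside rRNA, counting error only.

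The order by normalized count per kb was the same at its ends in every group. In control cells, MALAT1 stood at 3299 per kb, NEAT1 at 594 per kb and NORAD at 65.0 per kb, with no overlap between libraries of neighbors in this order. GAS5, TUG1 and MEG3 followed at 20.7, 20.4 and 20.3 per kb, and their libraries overlapped, so these 3 did not differ beyond their spread. PVT1 at 3.60 per kb, KCNQ1OT1 at 3.04 per kb and MIAT at 1.01 per kb closed the list. With shControl, GAS5 at 31.5 per kb stood clear of TUG1 and MEG3, both at 22.2 per kb and overlapping. With shMETTL3, TUG1 at 27.5 per kb and GAS5 at 27.1 per kb overlapped, and MEG3 at 21.5 per kb lay below both. With shMETTL14, GAS5 reached 58.2 per kb, and MEG3 at 33.1 per kb and TUG1 at 31.6 per kb overlapped. The ranks of all 10 RNAs in all 4 groups were identical when CPM of the counts outside rRNA were used instead.

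**Figure D1:**
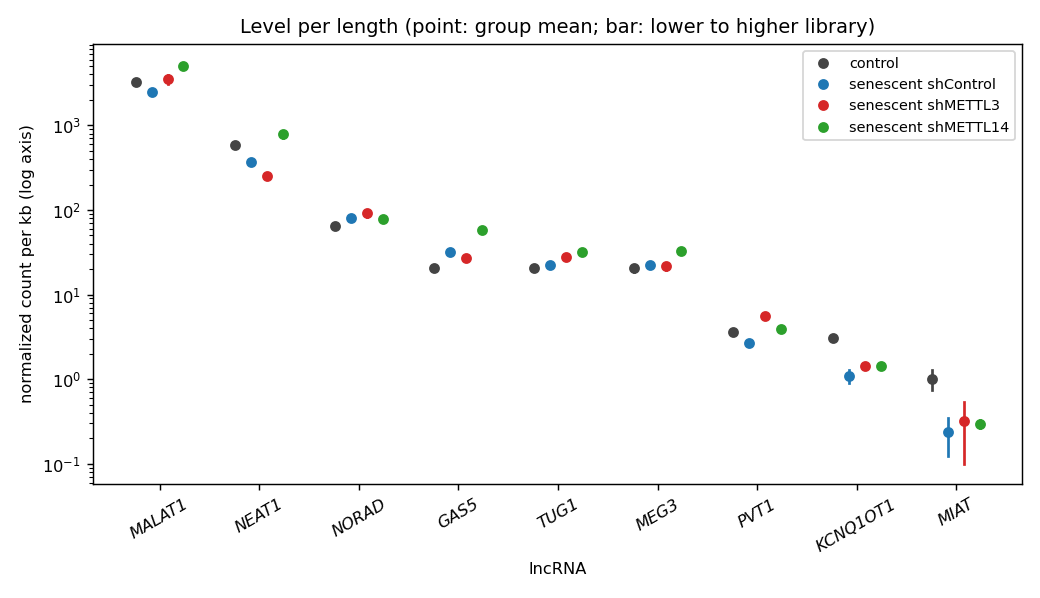
Normalized count per kb of counted span on a log axis for the 9 RNAs with reads, with a point for the mean of 2 libraries and a bar from the lower to the higher library in each group. MALAT1 and NEAT1 sit above all others in every group, GAS5, TUG1 and MEG3 lie together in control cells near 20.4 per kb, and MIAT is lowest.

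Senescence was accompanied by lower nascent transcription of 5 of the 9 RNAs tested and higher transcription of 1, GAS5. The 5 were MALAT1, NEAT1, PVT1, KCNQ1OT1 and MIAT. MIAT would not have passed the filter on low counts without the control libraries, where it was high, so the filter favored its call against control here and below, and of the other 8 RNAs 4 were called lower. Over all genes tested, 13.3% were called higher and 13.3% lower in senescent shControl than in control cells. The median log2 fold change was −0.43 over the 9 RNAs and −0.03 over all genes. The groups did not overlap for 7 of the 9 RNAs, as for 66.0% of all genes tested. Scaled by library size alone, which moves the median of all genes to −0.53, 0 RNAs were called higher and 5 lower, and the genes called went from 1711 higher and 1702 lower to 752 and 5015. Library size without rRNA rows left the split of the RNAs at 1 and 5 and gave 1435 genes higher and 2169 lower.

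KCNQ1OT1 had the smallest adjusted p of the RNAs that fell. Its normalized counts were 276 and 282 in the control libraries and 83.5 and 119 in the senescent shControl libraries. Both senescent libraries lay well below both control libraries. The log2 fold change was −1.46 (SE 0.17, 95% interval −1.81 to −1.11, adjusted p = 1.3e-07), which leaves 36.4% of the control level. MIAT had 16 and 28 reads in control cells, against 2 and 6 in the senescent shControl libraries. MIAT changed by −2.05 on the log2 scale with an SE of 0.65 (adjusted p = 0.019). These counts are small. With no filter on low counts MIAT was at −2.02 (adjusted p = 0.006), and the call was lost with DESeq2 (adjusted p = 0.1), without control replicate 2 (adjusted p = 0.23) and without senescent shControl replicate 1 (adjusted p = 0.24).

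Both nuclear body RNAs fell in senescence without leaving the top of the table. NEAT1 had normalized counts of 13450 and 13560 in control cells and 8154 and 8841 in senescent shControl cells. The pairs were far apart and the control pair nearly coincided. Its log2 fold change was −0.67 (SE 0.14, 95% interval −0.95 to −0.39, adjusted p = 0.00049). MALAT1 went from 27450 and 30440 to 21320 and 21680, a log2 fold change of −0.43 (SE 0.14, adjusted p = 0.025). PVT1 went from 1111 and 1096 to 825 and 817, likewise −0.43 on the log2 scale (SE 0.13, adjusted p = 0.017). The groups did not overlap for either RNA, but both calls were lost when any 1 of the 4 libraries compared was left out.

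GAS5 rose, with normalized counts of 98.7 and 107 in control cells and 155 and 158 in senescent shControl cells. Its log2 fold change was 0.60 (SE 0.16, 95% interval 0.27 to 0.94, adjusted p = 0.0066). Scaled by library size alone the value was 0.11 and did not pass (adjusted p = 0.7). It also did not pass without control replicate 1 (adjusted p = 0.08) or without senescent shControl replicate 2 (adjusted p = 0.052). The other 3 RNAs did not pass the test. NORAD had normalized counts of 349 and 346 in control cells and 408 and 447 in senescent shControl cells, a log2 fold change of 0.30 (95% interval 0.02 to 0.58, adjusted p = 0.11). MEG3 at 0.13 (95% interval −0.17 to 0.42) and TUG1 at 0.12 (95% interval −0.18 to 0.43) had overlapping libraries.

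**Figure D2:**
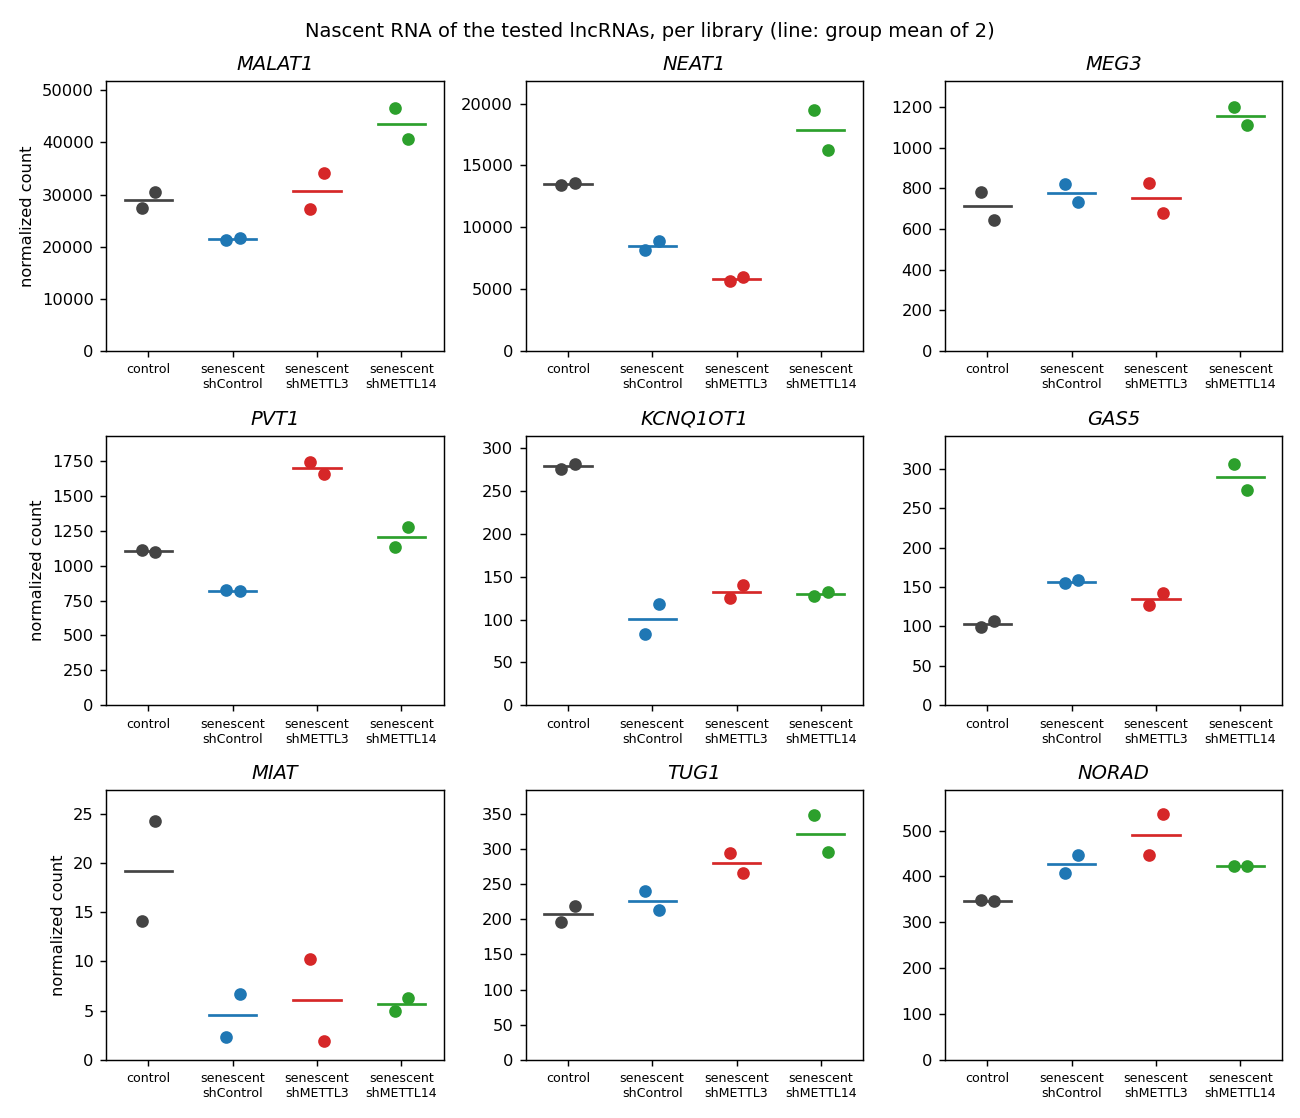
Normalized counts of the 9 RNAs with reads in each of the 8 libraries, as points, with a line at the mean of each group of 2. The panels of KCNQ1OT1 and MIAT show the control libraries above all senescent libraries, and those of MEG3 and GAS5 show the shMETTL14 libraries above all others.

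METTL3 knockdown in senescent cells split the nuclear body RNAs, with MALAT1 and PVT1 rising and NEAT1 falling further, the last call being lost by library size alone and without shControl replicate 2. Of the 9 RNAs tested, 2 were called higher and 1 lower, where 12.3% of all genes tested were called higher and 11.2% lower. The median log2 fold change was 0.31 over the 9 RNAs and −0.03 over all genes. The groups did not overlap for 6 of the 9, as for 58.4% of all genes tested. PVT1, counted on the plus strand at chr8:128806779-129113499, had the largest difference. Its normalized counts were 825 and 817 with shControl and 1742 and 1653 with shMETTL3. Both shMETTL3 libraries also lay above both control libraries. The log2 fold change was 1.05 (SE 0.13, 95% interval 0.77 to 1.32, adjusted p = 1.6e-06), or 2.07-fold.

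MALAT1 had normalized counts of 21320 and 21680 with shControl and 27210 and 34190 with shMETTL3. The pairs did not overlap, though the shMETTL3 libraries were spread by an SD of 16.1% of their mean. Its log2 fold change was 0.51 (SE 0.14, adjusted p = 0.0092), and the call was lost without shControl replicate 1 (adjusted p = 0.11), shControl replicate 2 (adjusted p = 0.1) or shMETTL3 replicate 2 (adjusted p = 0.13). NEAT1 went the other way, from 8154 and 8841 to 5660 and 5937 normalized counts. The shMETTL3 libraries were the lowest of all 8. The log2 fold change was −0.55 (SE 0.14, 95% interval −0.83 to −0.27, adjusted p = 0.0042), and the call was lost without shControl replicate 2 (−0.50, adjusted p = 0.084).

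The direction of NEAT1 depended on the scaling. By library size alone, which moves the median of all genes to 0.58, its log2 fold change was 0.07 (adjusted p = 0.66). Under that scaling 6 RNAs were called higher and 0 lower, and the genes called went from 1574 higher and 1434 lower to 5287 and 353. Library size without rRNA rows, with a median of −0.15, gave NEAT1 −0.66 and kept the split of the RNAs at 2 and 1, with 1186 genes higher and 1861 lower. The other 6 RNAs did not pass the test. KCNQ1OT1 at 0.38 (95% interval 0.01 to 0.76, adjusted p = 0.13) and TUG1 at 0.31 (95% interval 0.01 to 0.61, adjusted p = 0.13) had libraries that did not overlap. The log2 values were 0.20 for NORAD, −0.05 for MEG3, −0.21 for GAS5 and 0.37 for MIAT, whose interval ran from −1.29 to 2.05.

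METTL14 knockdown raised 6 of the 9 RNAs and lowered 0. They were both nuclear body RNAs, the imprinted MEG3, the small nucleolar RNA host GAS5, PVT1 and TUG1. Over all genes tested 9.15% were called higher and 12% lower. The median log2 fold change was 0.55 over the 9 RNAs and 0.00 over all genes. The groups did not overlap for 7 of the 9, as for 64.3% of all genes tested. Together the 10 RNAs took 1.80% and 1.89% of counts outside rRNA with shControl and 4.25% and 3.64% with shMETTL14, and 2.66% and 2.83% in control cells. Scaled by library size alone 7 were called higher and 0 lower, with 3163 genes higher and 709 lower in place of 1175 and 1545, and without rRNA rows the split of the RNAs stayed at 6 and 0, with 1628 genes higher and 1243 lower.

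NEAT1 had normalized counts of 19510 and 16240 with shMETTL14, against 8154 and 8841 with shControl. These were the highest of the 8 libraries. The log2 fold change was 1.07 (SE 0.14, 95% interval 0.79 to 1.36, adjusted p = 1.8e-06), or 2.10-fold. MALAT1 reached 46690 and 40570, against 21320 and 21680, a log2 fold change of 1.02 (SE 0.14, 95% interval 0.73 to 1.31, adjusted p = 6.2e-06). GAS5 had normalized counts of 306 and 274, against 155 and 158. Both shMETTL14 libraries were far above the other 6. Its log2 fold change was 0.89 (SE 0.15, 95% interval 0.58 to 1.20, adjusted p = 9e-05). These 3 calls were kept under each of the 19 alternatives.

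MEG3, a maternally expressed RNA known as a growth suppressor, had normalized counts of 819 and 732 with shControl and 1201 and 1112 with shMETTL14. It differed little among the other 3 groups, where its libraries overlapped. The log2 fold change was 0.58 (SE 0.14, adjusted p = 0.0043). PVT1 rose from 825 and 817 to 1134 and 1275 (log2 fold change 0.55, SE 0.13, adjusted p = 0.0035). TUG1 rose from 240 and 213 to 348 and 296 (0.51 on the log2 scale, SE 0.14, adjusted p = 0.012). Without senescent shControl replicate 2 these 3 calls were lost, with adjusted p of 0.12 for MEG3, 0.069 for PVT1 and 0.19 for TUG1, and 3 of the 6 remained. PVT1 was also lost without shControl replicate 1 (adjusted p = 0.057), and TUG1 without shMETTL14 replicate 1 (adjusted p = 0.23) and with DESeq2 (adjusted p = 0.066).

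The 3 RNAs that did not pass were KCNQ1OT1, NORAD and MIAT. KCNQ1OT1 had normalized counts of 127 and 132 with shMETTL14 (log2 fold change 0.36, 95% interval −0.02 to 0.73, adjusted p = 0.18). NORAD at 424 and 422 normalized counts, against 408 and 447, had a log2 fold change of −0.02 with an interval of −0.30 to 0.27. MIAT at 0.30 had an interval of −1.40 to 2.00, so at its 5 and 6 reads little could be detected.

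**Figure D3:**
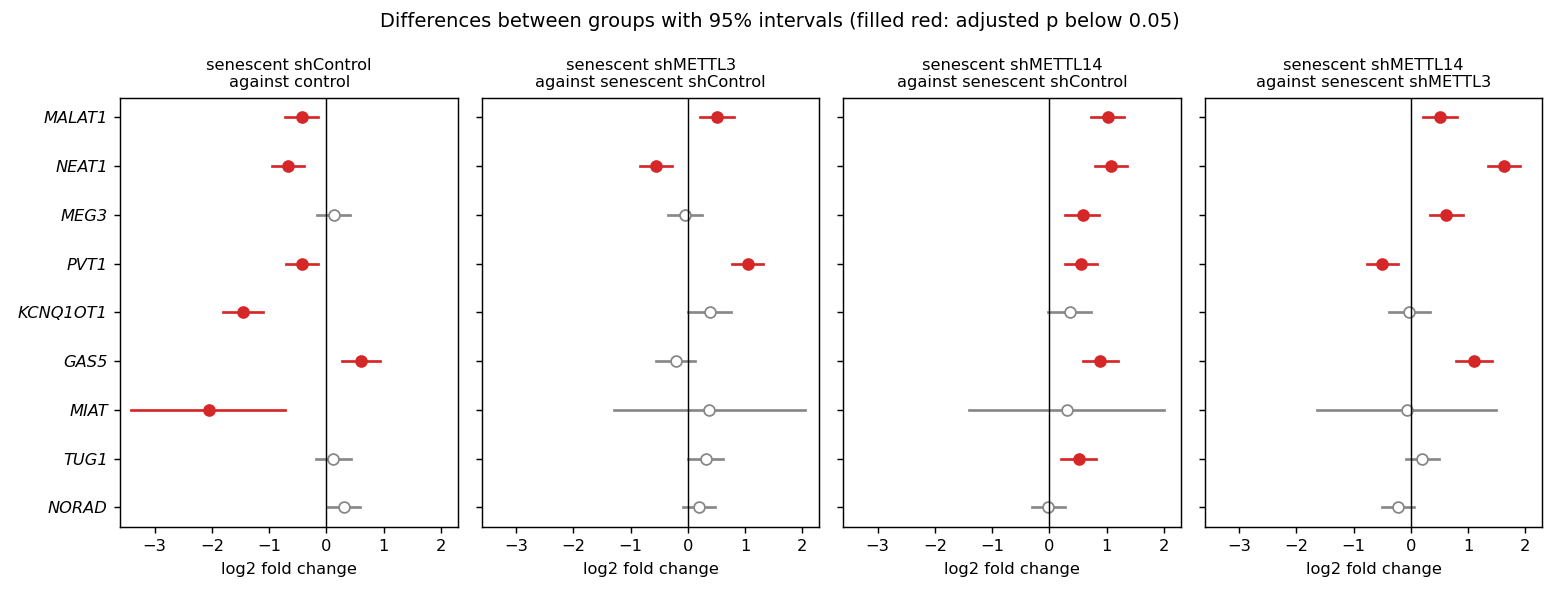
Log2 fold change of the 9 RNAs tested in 4 comparisons, with 95% intervals as lines and calls at an adjusted p below 0.05 as filled red points. Red points lie mainly left of 0 in senescence and right of 0 after METTL14 knockdown, and NEAT1, scaled by TMM, is left of 0 after METTL3 knockdown and right of 0 after METTL14 knockdown.

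The 2 knockdowns were compared directly, since both targeted subunits of the same enzyme. With shMETTL14, 4 RNAs were called higher and 1 lower than with shMETTL3, where 16.5% of all genes tested were called higher and 18.7% lower. The median was 0.20 over the 9 RNAs and 0.01 over all genes, and the groups did not overlap for 7 of the 9, as for 66.3% of all genes. NEAT1 differed most, with normalized counts of 19510 and 16240 against 5660 and 5937. The log2 fold change was 1.62 (SE 0.14, 95% interval 1.34 to 1.91, adjusted p = 2.8e-09), or 3.08-fold. GAS5 differed by 1.10 (SE 0.15, adjusted p = 2.5e-06), with normalized counts of 306 and 274 against 128 and 143.

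MEG3 differed by 0.62 on the log2 scale (SE 0.14, adjusted p = 0.0012) and MALAT1 by 0.51 (SE 0.14, adjusted p = 0.0065). PVT1 was lower with shMETTL14, by −0.50 (SE 0.13, adjusted p = 0.0043). In a fit of these 4 libraries alone, 3 of the 5 calls were made, with MALAT1 at an adjusted p of 0.08 and PVT1 at 0.055. MALAT1 was also lost without shMETTL14 replicate 1 (adjusted p = 0.056). Library size without rRNA rows, with a median of 0.22 over all genes, gave 5 RNAs higher and 0 lower and PVT1 at −0.29 (adjusted p = 0.07), with 3199 genes higher and 1648 lower in place of 2118 and 2399. Library size alone, with a median of −0.25, gave 3 higher and 2 lower, with 1177 and 3486 genes. KCNQ1OT1 at −0.03 (95% interval −0.39 to 0.33), TUG1 at 0.20 (−0.09 to 0.49) and NORAD at −0.22 (−0.50 to 0.06) did not pass.

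**Figure D4:**
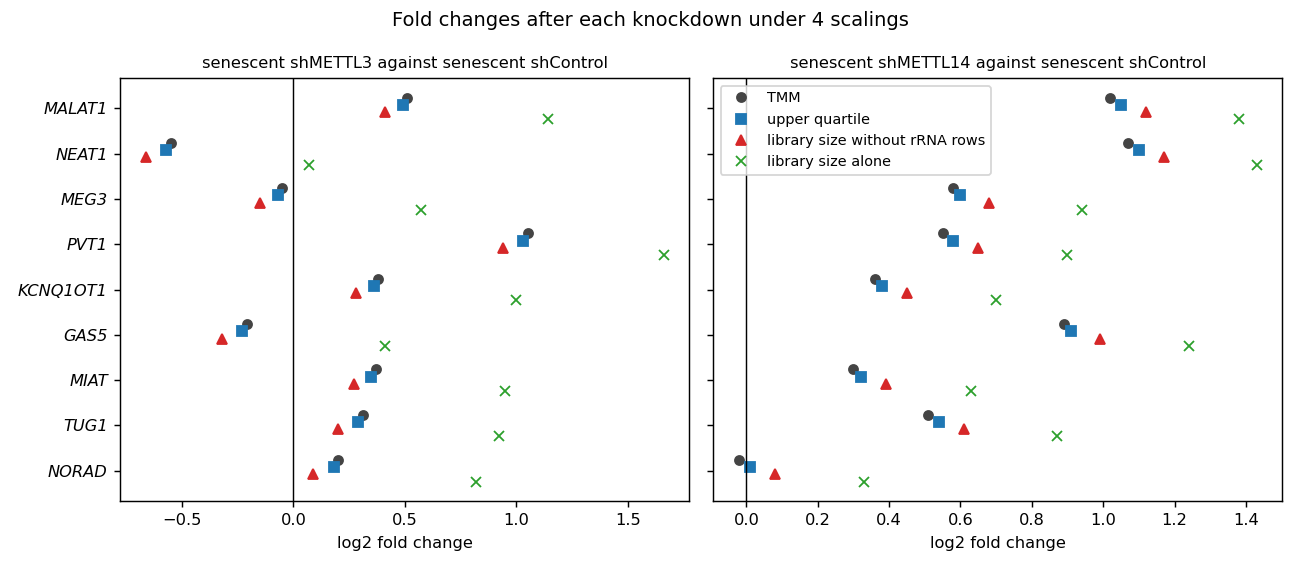
Log2 fold changes of the 9 RNAs after METTL3 and after METTL14 knockdown, each against senescent shControl, under TMM, upper quartile, library size without rRNA rows and library size alone. Library size alone shifts every RNA to the right, and NEAT1 after METTL3 knockdown moves from −0.55 to 0.07.

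Set against control cells that were not senescent, the knockdown groups were compared with the same 2 control libraries, so these comparisons are not independent of the ones above. With shMETTL3, 3 RNAs were called higher and 3 lower than in control cells, where 20.1% of all genes were called higher and 20.1% lower. With shMETTL14, 5 were called higher and 2 lower, where 19.7% and 20.5% of all genes were. Library size without rRNA rows, with a median of −0.26 over all genes, gave 1 RNA higher and 3 lower with shMETTL3, and 1886 genes higher and 3661 lower in place of 2579 and 2583. Library size alone, with a median of 0.07, gave 4 and 3 RNAs and 2899 and 2031 genes. With shMETTL14 library size alone, with a median of −0.14, gave 4 RNAs higher and 2 lower, and 1826 genes higher and 3078 lower in place of 2531 and 2636. KCNQ1OT1 stayed well under the control level, with log2 fold changes of −1.07 (adjusted p = 4.1e-06) and −1.10 (adjusted p = 3.2e-06). NEAT1 was at −1.22 with shMETTL3 (adjusted p = 5.5e-08) and at 0.40 with shMETTL14 (adjusted p = 0.02), the latter lost by library size alone (0.27, adjusted p = 0.052) and without control replicate 1 (adjusted p = 0.14), control replicate 2 (adjusted p = 0.13) or shMETTL14 replicate 1 (adjusted p = 0.13). MALAT1 was at 0.08 with shMETTL3 (95% interval −0.21 to 0.38) and at 0.59 with shMETTL14 (adjusted p = 0.0014, and 0.06 without control replicate 1). GAS5 with shMETTL14 was 2.81-fold the control level (log2 fold change 1.49, adjusted p = 1.2e-08). NORAD with shMETTL3 was at 0.50 (adjusted p = 0.0042), with an adjusted p of 0.053 without shMETTL3 replicate 2 and 0.067 by library size without rRNA rows.

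KCNQ1, the potassium channel gene that contains KCNQ1OT1, had 1366 reads over its 388 kb, of which 1340 were also counted for this RNA. Only 26 reads fell in the other 296 kb of KCNQ1, or 0.088 per kb, against 14.6 per kb within KCNQ1OT1. In the control libraries KCNQ1OT1 had 313 and 325 reads and the rest of KCNQ1 had 6 and 2. In senescent shControl cells the counts were 71 and 107 against 0 and 0. The same gap held in every library. The fall called for KCNQ1 in senescence (log2 fold change −1.48, adjusted p = 1.3e-07) therefore rests on reads within the KCNQ1OT1 span. The kit marks strand and the file header names a strand option, yet the same reads were counted for these genes on opposite strands, so the table does not tell which strand was transcribed.

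**Figure D5:**
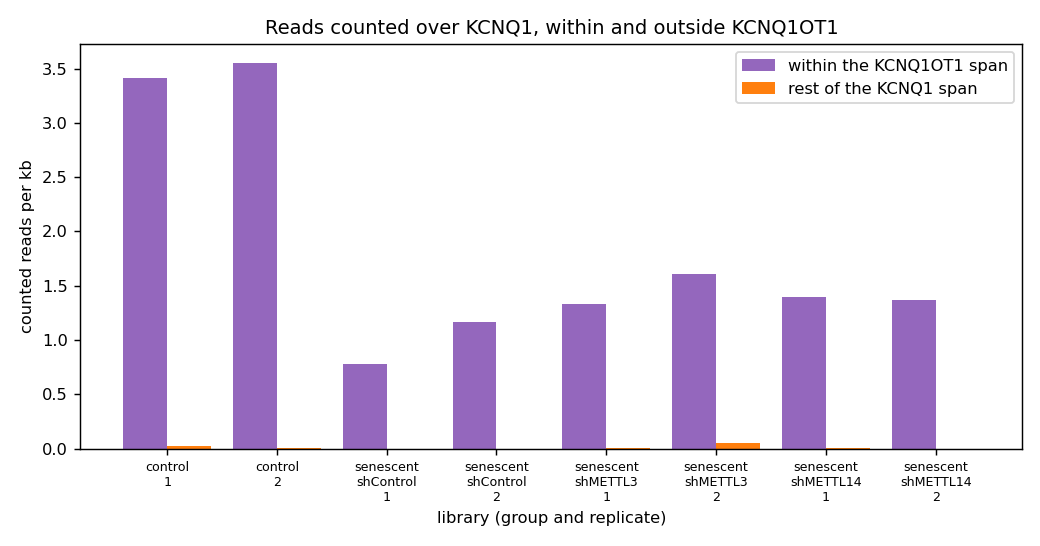
Reads per kb counted within the KCNQ1OT1 span and in the rest of the KCNQ1 span, as bars for each of the 8 libraries. The control libraries reach 3.41 and 3.55 reads per kb within KCNQ1OT1 and the senescent libraries 0.775 to 1.61, while the rest of KCNQ1 stays at or under 0.047.

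Other overlaps limit what can be said of single rows. TALAM1, the antisense partner of MALAT1, covers 82.1% of its span and had 94.4% as many reads, so both rows are close to the same measurement. MIR612, a microRNA row of 99 bases, lies 21.7 kb into the NEAT1 span, in the region that belongs to the long isoform alone. It had 151 reads, or 1530 per kb, against 4080 per kb over NEAT1 as a whole. Its reads were 28 and 33 in control cells, 12 and 9 in the shControl libraries, 4 and 11 after METTL3 knockdown and 27 and 27 after METTL14 knockdown. These few reads inside NEAT1 were lower in all libraries of shControl and shMETTL3 than in those of control and shMETTL14. MIATNB shares 3634 bases with MIAT on the same strand, or 19.1% of MIAT, and had 420 reads against 75, so some of the MIAT reads may be shared with it. Of 10 listed small nucleolar RNA rows inside GAS5, which held few reads, only SNORD76, with 72 reads in all, was tested, at 0.74 in senescence (adjusted p = 0.4) and −0.01 after METTL14 knockdown (adjusted p = 0.99).

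Of 15 genes for paraspeckle proteins, all tested, 1 was called higher and 3 lower in senescence, where 13.3% of all genes were called each way, with a median of −0.11. SFPQ, an essential paraspeckle protein, had 547 and 566 reads in control cells and 314 and 342 in senescent shControl cells (log2 fold change −0.38, adjusted p = 0.039). HNRNPH3 fell by 0.84 on the log2 scale (adjusted p = 0.00029) and FAM98A rose by 0.83 (adjusted p = 0.00058). After METTL3 knockdown 1 was called higher, PSPC1 at 0.44 (adjusted p = 0.018), and 2 lower, NONO at −0.39 (adjusted p = 0.041) and TARDBP at −0.64 (adjusted p = 0.024), where 12.3% and 11.2% of all genes were, with a list median of 0.06. After METTL14 knockdown, where NEAT1 rose 2.10-fold, 1 was called higher, DAZAP1 at 0.63 (adjusted p = 0.023), 1 was called lower, HNRNPK at −0.43 (adjusted p = 0.031), and 13 did not pass, with a median of −0.03, where 9.15% and 12% of all genes were called higher and lower.

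Of 13 genes for nuclear speckle proteins, the neighbors of MALAT1 in the nucleus, 1 was called higher and 1 lower in senescence, SRSF5 at 0.45 (adjusted p = 0.037) and SRSF3 at −0.50 (adjusted p = 0.02), where 13.3% of all genes were each way. After METTL3 knockdown 1 was called higher, the splicing factor SRSF11 at 0.43 (adjusted p = 0.025), and 0 lower, against 12.3% and 11.2% of all genes. After METTL14 knockdown 1 was called higher, RNPS1 at 0.84 (adjusted p = 0.0028), and 2 were called lower, SRSF1 at −0.57 (adjusted p = 0.012) and SRSF11 at −0.54 (adjusted p = 0.0088), against 9.15% and 12% of all genes. The list medians were −0.03, −0.01 and 0.02. SON, the core speckle protein with 465 to 577 reads per library, was not called in any of these 3 comparisons.

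Of 17 listed neighbors of the imprinted H19, KCNQ1OT1 and MEG3, not all of them known here to be imprinted themselves, 12 were tested. In senescence 4 were called higher and 1 lower, the last being KCNQ1, with a median of 0.16, where 13.3% of all genes were called each way. IGF2, the growth factor gene that neighbors H19, had 46 and 18 reads in control cells and 244 and 189 in senescent shControl cells. Senescent libraries were all above control libraries, although H19 itself had no reads. Its log2 fold change was 3.14 (adjusted p = 1.9e-10), and the row INS-IGF2 holds the same reads, so IGF2 is counted again under that name in each of these counts. After METTL14 knockdown IGF2 fell by 1.43 (adjusted p = 1.8e-05), 4 of the 12 were called lower and 0 higher, against 12% and 9.15% of all genes, and the median was −0.56. After METTL3 knockdown 3 were called lower and 0 higher, against 11.2% and 12.3% of all genes, with PHLDA2, a placental growth regulator at the KCNQ1OT1 end of the cluster, at −1.05 (adjusted p = 0.0068), and the median was −0.40.

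MEG8, which lies downstream of MEG3 in the same imprinted cluster, moved apart from it. It had 1028 and 1082 reads in control cells, 1430 and 1286 in the shControl libraries, 1581 and 2267 after METTL3 knockdown and 617 and 784 after METTL14 knockdown. The shMETTL14 libraries were the lowest for MEG8 and the highest for MEG3. MEG8 rose in senescence by 0.75 (adjusted p = 0.00056) and fell after METTL14 knockdown by 1.11 on the log2 scale (adjusted p = 7.9e-06), where MEG3 rose by 0.58.

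Of 12 listed genes next to these RNAs, 10 were tested. In senescence 2 were called lower, where 13.3% of all genes were, TALAM1 and MIATNB, which share reads with MALAT1 and MIAT. After METTL3 knockdown the only call was TALAM1, which was higher, where 12.3% of all genes were called higher and 11.2% lower. After METTL14 knockdown 2 were called higher, TALAM1 and MORC2, which lies beside TUG1, and 1 lower, EPB41L1 beside NORAD, where 9.15% and 12% of all genes were. MORC2, an ATPase of chromatin compaction, had 105 and 114 reads with shControl and 240 and 190 with shMETTL14 (log2 fold change 0.81, adjusted p = 0.00086). LTBP3 beside MALAT1 and FRMD8 beside NEAT1 were not called in any of these 3 comparisons. The medians of the list were −0.15, −0.03 and 0.26.

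Of 6 genes for protein partners, all tested, 1 was called higher and 1 lower in senescence, where 13.3% of all genes were each way. After METTL3 knockdown 0 were called, where 12.3% of all genes were called higher and 11.2% lower. After METTL14 knockdown 0 were called as well, where 9.15% and 12% of all genes were. The Pumilio gene PUM2, whose protein NORAD binds, was at 0.43 in senescence (adjusted p = 0.031). EZH2, the Polycomb methyltransferase, had 96 and 108 reads in control cells and 31 and 35 in senescent shControl cells (log2 fold change −1.24, adjusted p = 0.00021). The medians were 0.03, 0.12 and 0.09.

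Among 43 other lncRNAs listed, 41 were in the table and 27 were tested. In senescence 8 were called higher and 8 lower, against 13.3% of all genes each way, with a median of −0.13. After METTL3 knockdown 10 were called higher and 1 lower, against 12.3% and 11.2% of all genes, with a median of 0.43. After METTL14 knockdown 6 were called higher and 6 lower, against 9.15% and 12%, with a median of −0.09. Between the knockdowns 5 were higher and 13 lower with shMETTL14, against 16.5% and 18.7%, with a median of −0.54. MIR31HG, a lncRNA that rises in RAS-induced senescence, had 212 and 197 reads in control cells and 3278 and 2981 in senescent shControl cells (log2 fold change 4.32, adjusted p = 1.2e-16). Against shControl it was higher with shMETTL3 (0.43, adjusted p = 0.039) and lower with shMETTL14 (−1.02, adjusted p = 1.6e-05). FENDRR, a lncRNA of lung and heart mesenchyme, fell by 1.01 in senescence (adjusted p = 1.2e-05) and against shControl was lower again with shMETTL14 (−2.26, adjusted p = 1.4e-09), with −0.20 after METTL3 knockdown (adjusted p = 0.4). LINC-PINT had 616 and 590 reads with shControl and 1556 and 1758 with shMETTL3 (1.24, adjusted p = 1.3e-07), and was also higher with shMETTL14 (0.70, adjusted p = 0.00034).

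Other hosts of small nucleolar RNAs in that list can be set beside GAS5. They were picked out after their values were seen. After METTL14 knockdown SNHG1 was at 0.89 (adjusted p = 0.0029), SNHG5 at 0.84 (adjusted p = 0.0054), SNHG12 at 1.35 (adjusted p = 0.012), ZFAS1 at 0.19 (adjusted p = 0.44) and SNHG15 at 0.98 (adjusted p = 0.16), where GAS5 was at 0.89. After METTL3 knockdown none of these 5 was called, with values from −0.42 for ZFAS1 to 0.43 for SNHG12. DANCR, another host, was called higher by both knockdowns, at 2.04 with shMETTL3 (adjusted p = 0.0018) and 1.82 with shMETTL14 (adjusted p = 0.0064), from 5 and 7 reads with shControl. EPB41L4A-AS1, also a host, was called by neither, at 0.54 and −0.16. In senescence SNHG1 at 0.81 (adjusted p = 0.012) and ZFAS1 at 0.84 (adjusted p = 0.00041) were called higher, as was GAS5, where 13.3% of all genes were. The other hosts named here were not called. SNHG5 was at 0.38, SNHG12 at 0.69, SNHG15 at 0.62, EPB41L4A-AS1 at 0.69 and DANCR at −0.97 (adjusted p = 0.17).

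The genes whose log2 normalized counts followed each RNA most closely over the 8 libraries were found among genes that averaged 50 counts or more and do not overlap it. These correlations are descriptions over 4 groups of 2 libraries that share their scaling, and the best of many genes is always high. For NEAT1 the closest was CCBE1 (Pearson's r 0.993, Spearman's rho 0.976). CCBE1, a secreted factor of lymphatic growth, had 1071 and 1013 reads in control cells, 293 and 385 in the shControl libraries, 228 and 261 after METTL3 knockdown and 1297 and 1040 after METTL14 knockdown. For MALAT1 they were MAST2 (r 0.977) and MTHFD1L (r 0.974), and for GAS5 they were ANXA2 (r 0.991) and TRIB3 (r 0.99). TRIB3, a stress response gene, had 40 and 33 reads with shControl and 123 and 114 with shMETTL14. For MEG3 they were POLR1A (r 0.987) and EPHA2 (r 0.984), for PVT1 CKMT2 (r 0.98) and CKMT2-AS1 (r 0.977), and for KCNQ1OT1 ITGB8 (r 0.99) and GPC6 (r 0.989). For TUG1 they were ZBTB43 (r 0.978) and GNG5 (r 0.974), for NORAD RPRD1A (r 0.973) and ZRANB2 (r 0.963), and for MIAT, at its few reads, MXD4 (r 0.99) and KHDRBS1 (r 0.959).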

How the data were processed

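fastGRO-seq was analysed in 8 libraries of IMR90 cells in 4 groups, as the labels give them. The authors aligned reads to hg19, their processing notes name STAR as a tool, and they deposited raw read counts per whole gene span from HOMER, with replicates kept apart. Its header sets a strand option, yet genes on opposite strands share reads. Changes are relative to other genes of the same library, because the spike-in of the authors did not enter these values. HiChIP and other assays of the study were not analysed here.

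Counts were tested with edgeR 4.0.16 in R 4.3.3, with TMM, filterByExpr (minimum count 10) and 1 quasi-likelihood fit over 4 groups, and p-values were adjusted by Benjamini-Hochberg over 12844 genes with a threshold of 0.05. SE is the log2 fold change over the square root of F, and 95% intervals use it. Fold changes are shrunk slightly by the prior count of edgeR. The biological coefficient of variation was 10.6%. Of 27945 genes 6423 had no count, and every row named a gene. Library totals of 14897360 to 20306299, mostly rRNA, set the precision: with 1513930 to 2048475 other counts, RNAs under 30 reads such as MIAT are measured loosely. The chi-square per gene between replicates was taken over genes with at least 20 counts, rRNA rows included. It was 1.74 in control, 1.78 with shControl, 8.00 with shMETTL3 and 3.64 with shMETTL14, and takes in shifts of the rRNA share between replicates. No pair of libraries was an identical copy, but this does not tell whether the cultures were separate. The tests were checked on simulated data.

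Members and lists were chosen with earlier results of these data known. The genes named are the 10 RNAs, METTL3 and METTL14, rows that overlap them, the 2 most alike genes each, and up to 4 genes of each list, the largest and smallest changes called and the best counted without a call. Some genes covered by this rule are not reported here. More paraspeckle and speckle genes than it gives, SON among them, were named after their values were seen. IGF2, MEG8, MORC2, CCBE1, TRIB3 and the small nucleolar RNA hosts were described at length after their values were seen. Alternatives were DESeq2 1.42.0, library size alone, upper quartile, other filters, no rRNA and small RNA rows, only the groups compared, a replicate block, an adjusted p below 0.01 and each library left out, where a lone library is assumed to vary like the other groups. Library size without rRNA rows and scaling from protein-coding genes alone were added after seeing the data. Promoters came from RefSeq (GRCh38.p14), other sequence and exons from GRCh37 and GENCODE. Plots were drawn with matplotlib.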

Additional observations from a re-analysis of the deposited data

Results flagged for a closer look

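The difference between METTL14 and METTL3 knockdown, tested directly with edgeR's quasi-likelihood test, passed the threshold for 5 RNAs. On the log2 scale NEAT1 was higher with shMETTL14 by 1.62 (adjusted p = 2.8e-09), GAS5 by 1.10 (adjusted p = 2.5e-06), MEG3 by 0.62 (adjusted p = 0.0012) and MALAT1 by 0.51 (adjusted p = 0.0065), and PVT1 was at -0.50 (adjusted p = 0.0043). NEAT1 and GAS5 held under each of the 19 alternatives, while MALAT1 and PVT1 each lost the call under 2 of them and MEG3 under 1. Of these 5, NEAT1 was called in opposite directions by the knockdowns against shControl, but the call after METTL3 knockdown was lost by library size alone (0.07, adjusted p = 0.66) and without senescent shControl replicate 2 (-0.50, adjusted p = 0.084). Against shControl, nascent METTL3 was at -2.04 with its own hairpin (adjusted p = 1.8e-05), while nascent METTL14 at -0.86 with its own was not called (adjusted p = 0.076). These values do not measure the mature RNA or protein left after knockdown, and their part in the differences was not tested.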

How the results depend on the processing

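Over 1017 values of single RNAs under 19 alternatives, 919 kept their direction and side of the threshold, 55 lost a call, 15 gained one and 28 changed sign, 26 of the last with no call either way. In senescence against control, 3 RNAs in place of 6 were called at an adjusted p below 0.01, and 3 to 7 with 1 library left out (3 without each library of the groups compared). Over all genes, calls went from 1711 higher and 1702 lower to 1219 and 1045 at 0.01, and to 1066 and 763 without senescent shControl replicate 1. METTL3 knockdown gave 6 in place of 3 by library size alone, and 1 to 3 with 1 library left out (1 without senescent shControl replicate 2, with 769 and 723 genes in place of 1574 and 1434). METTL14 knockdown gave 3 to 6 with 1 library left out (3 without senescent shControl replicate 2, with 509 and 873 genes in place of 1175 and 1545). The knockdowns compared gave 3 in place of 5 in a fit of their 4 libraries alone, with 1703 and 1896 genes in place of 2118 and 2399.

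Of the sign changes, 9 came by library size alone, which gave in senescence MEG3 -0.37, TUG1 -0.37 and NORAD -0.19, after METTL3 knockdown NEAT1 0.07, MEG3 0.57 (adjusted p = 0.0035) and GAS5 0.41, after METTL14 knockdown NORAD 0.33, between knockdowns TUG1 -0.05 and with shMETTL14 against control PVT1 -0.02. Upper quartile gave NORAD 0.01 after METTL14 knockdown and KCNQ1OT1 0.02 between knockdowns. Library size without rRNA rows gave NORAD 0.08 after METTL14 knockdown, KCNQ1OT1 0.18 and MIAT 0.12 between knockdowns, and MALAT1 and MEG3 both -0.13 with shMETTL3 against control. With 1 library left out, after METTL3 knockdown MEG3 ranged from -0.21 to 0.07 and MIAT from -1.23 to 1.28. After METTL14 knockdown MIAT ranged from -0.24 to 1.21 and NORAD from -0.08 to 0.05. Between knockdowns MIAT ranged from -0.83 to 1.52 and KCNQ1OT1 up to 0.08. With shMETTL3 against control MEG3 ranged from -0.07 to 0.22 and MALAT1 from -0.10 to 0.24. The cause was not tested. By library size alone the median of all genes lay between -0.53 and 0.58 over the 6 comparisons.

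Replicate numbers did not pair the libraries (correlations of deviations from -0.0435 to 0.0771), and with the replicate block the counts of RNAs called stayed at 6, 3, 6, 5, 6 and 7 in the 6 comparisons. The order by level per length was the same for all 40 ranks under the other scaling. MIAT has too few reads for the filter of 10 counts in every library, so it has no value there.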
